A study of Mus musculus with 3 samples.

Results

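The 10 genes that mark lipid-associated macrophages or serve the uptake of dying cells (Trem2, Gpnmb, Spp1, Cd9, Lpl, Lgals3, Cd5l, Axl, Mertk and Timd4) were followed through a single-cell RNA sequencing series of mouse liver. They were chosen by symbol, and all 10 were found among the 55357 features of the count matrices, each with at least 1 unique molecular identifier (UMI) in every library. The series holds 3 libraries, labelled CON, HFD and CCL4, and each pools liver cells of 2 wild-type male C57BL/6 mice that were 8 weeks old at the start. CON mice were kept untreated under standard conditions. HFD mice ate a diet with 60% of its calories from fat for 4 months. CCL4 mice had chow for 3 months and then intraperitoneal injections of 0.1 mL of a 10% carbon tetrachloride solution, 2 per week for 4 weeks. Hepatocytes and non-parenchymal cells were separated after collagenase perfusion and mixed back in equal numbers before droplets were made, so shares of cells do not stand for their shares in the liver.

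Lipid-associated macrophages are tissue macrophages that take up and break down lipid and dying cells in fatty or injured tissue. Their lipid sensor TREM2 signals through the adaptor TYROBP, and TREM2-positive cells often carry GPNMB, CD9, osteopontin (Spp1), lipoprotein lipase (Lpl) and galectin-3 (Lgals3). Efferocytosis, the clearance of apoptotic cells, relies on receptors for phosphatidylserine. Some, such as TIM4 (Timd4), bind it directly. AXL and MERTK bind it through bridging proteins such as GAS6. Resident Kupffer cells of the mouse liver are known for Clec4f, Vsig4, Timd4 and Cd5l, whereas macrophages newly derived from monocytes lack these at first.

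The libraries held 11245 (CON), 12984 (HFD) and 12761 (CCL4) barcodes with medians of 2939, 2336 and 2173 UMIs, and 36 to 52 barcode sequences were shared by each pair of libraries, at most 0.436% of the smaller. With 1 library per group there was no replicate, so no test was made. Every interval given is an exact 95% interval that covers counting error only, and every ratio compares 2 libraries, not the conditions. Levels are UMIs of a gene per 1000000 UMIs (CPM) summed over the cells of a class. Hepatocyte RNA was present in cells of other kinds and differed between libraries: the 10 hepatocyte markers summed to 22985 CPM in T cell-like cells of CON, 80966 in HFD and 105124 in CCL4. T cell-like cells, which should lack the macrophage genes, served as the background.

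Classes were named from marker genes that did not include the 10 genes, and the 10 genes took no part in the clustering. The Kupffer-like class held 68, 139 and 18 cells in CON, HFD and CCL4, and consisted of 2 clusters. Cluster A (67, 59 and 10 cells) carried C1qa, a complement gene of macrophages, in 97.0%, 81.4% and 80% of its cells. Clec4f, the most specific marker of resident mouse Kupffer cells, was found in 17.9%, 32.2% and 10% of them, and Vsig4, a complement receptor, in 22.4%, 37.3% and 20%. The C1q genes are among the markers by which the class was named, so their presence does not test the label. Most cells of cluster A showed no UMI of Clec4f or Vsig4. Cluster B was almost wholly from 1 library, with 1, 80 and 8 cells, so it may be a feature of that library rather than a type of cell. In its HFD cells C1qa was found in 26.2%, the 10 Kupffer markers summed to 633 CPM against 7349 in HFD cluster A, and the hepatocyte markers summed to 116538 CPM against 59196. The 10 classical monocyte markers summed to 993 CPM there, more than the Kupffer markers, and the 10 nonclassical ones to 337. Lyz2, 1 of the classical monocyte markers, was found in 61.25% of these cells. The markers of cluster B in HFD thus did not bear out the Kupffer name, and HFD values over both clusters include it. The members are therefore given for both clusters together and for cluster A alone.

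The other phagocyte classes were classical monocyte-like cells (205, 660 and 204 cells), nonclassical monocyte-like cells (0, 548 and 2) and dendritic cell-like cells (95, 129 and 83). Before the phagocytes were clustered again, the cluster named nonclassical held 23, 697 and 16 cells of CON, HFD and CCL4. Nonclassical monocyte markers summed to 1471, 776 and 628 CPM in classical monocyte-like cells, highest in CON. Whether the CON class held both monocyte types was not tested. The classical monocyte-like cells of CON formed a cluster of their own, led by Lyz2, Chil3 and Thbs1. Those of HFD fell almost wholly into a pair of other clusters, led by Lyz2, Chil3 and Cxcl2 and by Lyz2, Chil3 and Alox5ap, and those of CCL4 into another, led by Lyz2, Ccl6 and Alox5ap. Of the dendritic cell-like cells, 101 of 129 in HFD and 64 of 83 in CCL4 lay in 1 cluster that raised 3 dendritic markers and all 10 hepatocyte markers, against 3 of 95 in CON. Hepatocyte-like and T cell-like cells also lay mostly in clusters of their own library, whereas cholangiocyte-like and endothelial-like cells each formed 1 cluster shared by the 3 libraries.

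On GRCm38 (GENCODE M21 annotation; the build used for counting is named differently in the study's methods and its processing notes) the members lie on 10 separate protein-coding loci. The receptor genes are Trem2 at chr17:48346401-48354147, Axl at chr7:25757273-25788705 on the minus strand, Mertk at chr2:128698956-128802894 and Timd4 at chr11:46810800-46844332. Gpnmb is at chr6:49036546-49070929, and Cd9 at chr6:125460266-125494791 on the minus strand. The genes of secreted proteins are Spp1 at chr5:104435118-104441050, Lpl at chr8:68880491-68907448, Lgals3 at chr14:47367751-47386160 and Cd5l at chr3:87357881-87371073. Genes given without a strand are on the plus strand. Spp1 and Mertk each overlap 1 annotated gene on the same strand (Gm42793 and Gm23172), where reads could be divided or dropped, and Cd9 and Mertk overlap genes on the opposite strand.

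**Figure D1:**
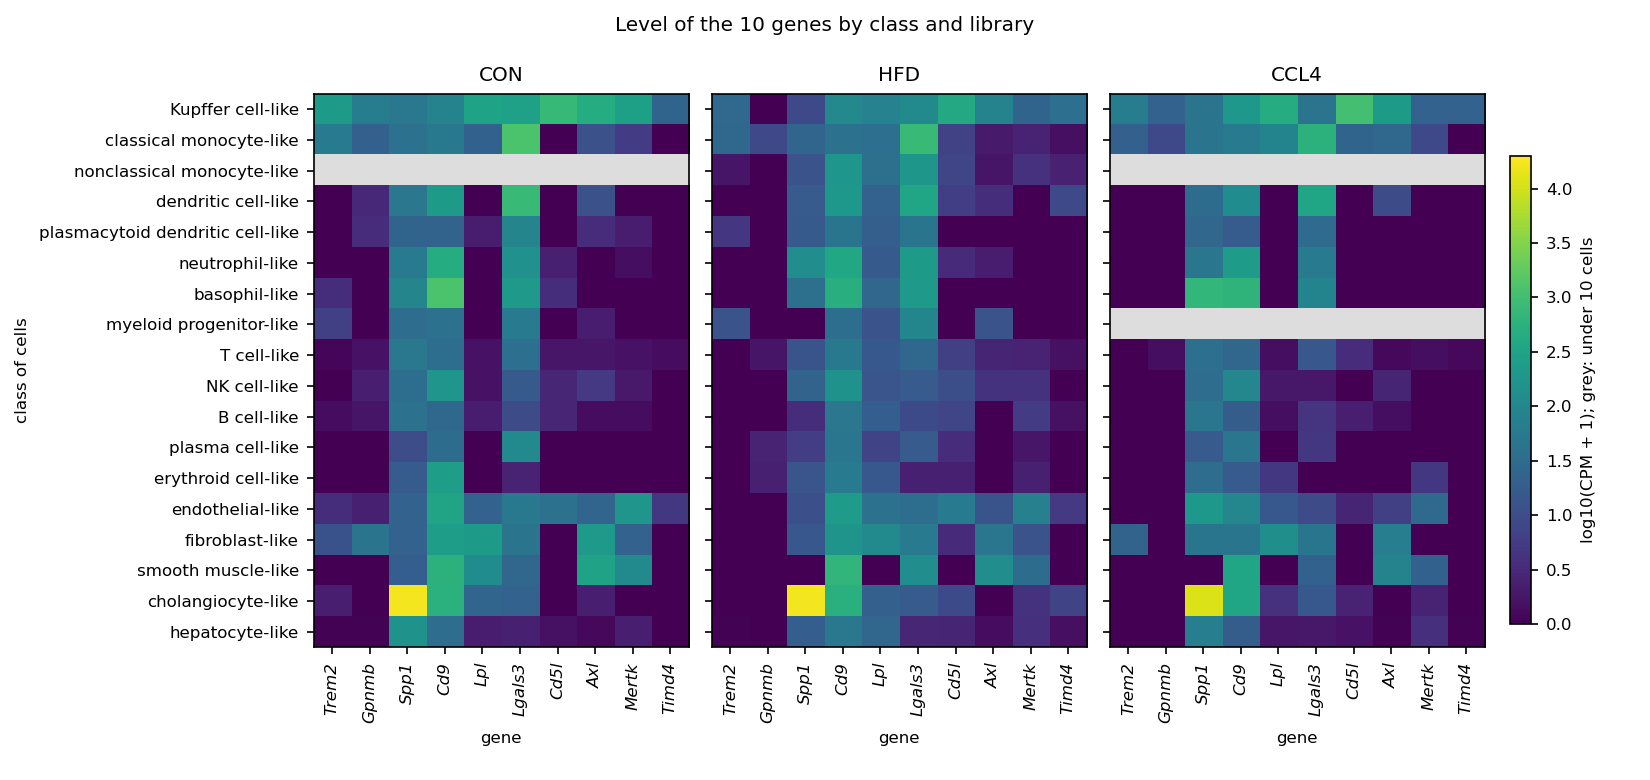
Level of each of the 10 genes (columns) in each named class of cells (rows) in the CON, HFD and CCL4 libraries, as colour on a log scale of CPM. Cd5l and Axl stand out in the Kupffer-like row of CON at 773 and 462 CPM, Lgals3 in classical monocyte-like cells at 1208 CPM, and Spp1 in cholangiocyte-like cells at 17053 CPM.

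The members fell into 3 patterns over the classes. Trem2, Gpnmb, Lpl, Cd5l, Axl, Mertk and Timd4 had their highest level in CON in Kupffer-like cells, among classes of at least 50 cells. Lgals3 was highest in classical monocyte-like cells, before dendritic cell-like cells, in all 3 libraries. Spp1 was highest in cholangiocyte-like cells in all 3 libraries, and Cd9 was spread over many classes, so neither marked a macrophage here.

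Trem2, the lipid receptor, gave 75 UMIs in Kupffer-like cells of CON, 11 in HFD and 3 in CCL4. Its level was 215 CPM (169–270) in CON, 28.8 (14.4–51.4) in HFD and 65 (13.4–190) in CCL4, so CON was the highest and its interval did not meet that of HFD. The HFD to CON ratio was 0.133 (0.0639–0.253) over both clusters and 0.277 (0.128–0.538) in cluster A alone. The CCL4 to CON ratio was 0.302 (0.0609–0.917) over both clusters, and in cluster A 0.458 with an interval that reached past 1 (0.0924–1.39). Trem2 was detected in 34 of 67 cluster A cells of CON (50.7%), 10 of 59 of HFD (16.9%) and 2 of 10 of CCL4 (20%), at medians of 4781, 2819 and 3075 UMIs per cell. Thinned to 1000 UMIs per cell, these shares were 19.2%, 5.6% and 8.02%, in the same order. In T cell-like cells 1 UMI of Trem2 was counted among 1747 cells of CON (median 2380 UMIs) and none among 2146 of HFD, which allows 0.172%.

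Gpnmb, a transmembrane glycoprotein of lysosome-rich macrophages, was found with 23 UMIs in 8 Kupffer-like cells of CON, and 10 of these UMIs came from 1 cell. No UMI was counted in 139 cells of HFD, and 1 was counted in 18 cells of CCL4. The CON level was 66.1 CPM (41.9–99.1). HFD was at most 0.119 of CON against a floor of 3 UMIs, and at most 0.271 in cluster A. For CCL4 the ratio of 0.328 (0.00797–2.02) did not set the library apart from CON.

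Cd9, a tetraspanin, was higher than CON in cluster A of both other libraries. Kupffer-like cells held 29 UMIs in CON, 40 in HFD and 9 in CCL4, or 83.3 (55.8–120), 105 (74.7–142) and 195 (89.2–370) CPM. In cluster A the levels were 84, 193 and 232 CPM, with ratios to CON of 2.29 (1.34–3.93) for HFD and 2.76 (1.02–6.45) for CCL4. Over both clusters the ratios of 1.26 (0.759–2.10) and 2.34 (0.975–5.08) had intervals that included 1. As UMIs per cell the HFD log2 ratio of CPM + 5, 0.31, turned to -0.55. T cell-like cells held 34.8, 54.7 and 25.4 CPM of Cd9, so Cd9 was also found in the background class.

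Lpl, which hydrolyses the triglycerides of lipoproteins, gave 108 UMIs in Kupffer-like cells of CON, 31 in HFD and 21 in CCL4. The levels were 310 (254–374), 81.0 (55.1–115) and 455 (282–696) CPM, so HFD was lowest and CCL4 overlapped CON. The HFD to CON ratio was 0.261 (0.169–0.393), and 0.500 (0.313–0.773) in cluster A. The CCL4 to CON ratio was 1.47 (0.873–2.36), and 2.12 (1.25–3.44) in cluster A, where the 20 UMIs came from 4 cells of 10. Lpl also differed in the background: T cell-like cells held 0.603 CPM in CON, 14.4 in HFD and 0.458 in CCL4, and hepatocyte-like cells 1.13, 25.6 and 0.827 CPM. The part of this in the Kupffer-like values of HFD was not tested.

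Cd5l, a secreted scavenger-receptor protein known for resident tissue macrophages, was the member most tied to the class. It gave 269, 152 and 47 UMIs in Kupffer-like cells, or 773 (683–871), 397 (337–466) and 1019 (749–1355) CPM in CON, HFD and CCL4. HFD was lower than CON over both clusters (0.514, 0.419–0.630), but in cluster A the 2 libraries were level at 779 and 807 CPM (1.04, 0.835–1.28). CCL4 was at 1.96 times CON in cluster A (1.40–2.69) on 46 UMIs in 6 cells, and at 1.32 (0.946–1.80) over both clusters, where the direction held under 10 of 13 alternative settings of filtering, clustering and scaling. Against all other cells of its own library, the Kupffer-like class was 469-fold higher in CON, 80.9-fold in HFD and 824-fold in CCL4. The class made up 0.607%, 1.07% and 0.141% of cells and held 76.9%, 47.2% and 52.8% of all Cd5l UMIs.

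Lgals3, which binds glycans on the cell surface and on damaged lysosomes, gave 100, 43 and 2 UMIs in Kupffer-like cells, or 287 (234–349), 112 (81.3–151) and 43.4 (5.25–157) CPM. CON was the highest of the 3. The HFD to CON ratio was 0.391 (0.267–0.565) over both clusters, but in cluster A 0.748 with an interval that included 1 (0.496–1.11). The CCL4 to CON ratio was 0.151 (0.0180–0.560), and 0.229 (0.0274–0.849) in cluster A. With each library clustered on its own this direction turned, from a log2 ratio of -2.60 to 0.34.

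Spp1, which encodes the secreted matrix protein osteopontin, gave 18, 3 and 2 UMIs in Kupffer-like cells, or 51.7, 7.84 and 43.4 CPM. These levels were close to those of the background: T cell-like cells held 51.0 CPM in CON, 12.3 in HFD and 35.7 in CCL4. Cluster A over T cell-like cells gave ratios of 1.02 (0.596–1.65) in CON, 1.47 (0.296–4.50) in HFD and 1.86 (0.223–6.82) in CCL4. An excess of Spp1 in Kupffer-like cells was thus not detectable at this depth, and its HFD to CON ratio there, 0.152 (0.0286–0.520), stood beside 0.240 (0.179–0.318) in T cell-like cells.

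The bridging-protein receptors Axl and Mertk were both lower outside CON. Axl gave 161, 32 and 10 UMIs in Kupffer-like cells, or 462 (394–540), 83.6 (57.2–118) and 217 (104–399) CPM. Mertk gave 96, 9 and 1 UMIs, or 276 (223–337), 23.5 (10.8–44.7) and 21.7 (0.549–121) CPM. In both genes CON was highest. For Axl the ratio to CON was 0.181 (0.120–0.266) in HFD and 0.469 (0.221–0.885) in CCL4, and in cluster A 0.387 (0.253–0.574) and 0.640 (0.288–1.25). For Mertk it was 0.0853 (0.0379–0.169) and 0.0786 (0.00197–0.449), and in cluster A 0.197 (0.0874–0.390) and 0.121 (0.00302–0.688). Mertk in HFD was thus the lowest of the members with any UMI in both libraries, relative to CON.

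The share of positive cells moved with the level. Axl was found in 82.1%, 32.2% and 70% of cluster A cells of CON, HFD and CCL4, and in 37.3%, 14.7% and 27.4% after thinning to 1000 UMIs. Mertk was found in 64.2%, 15.3% and 10%, and in 23.6%, 5.85% and 3.14% after thinning. In T cell-like cells, at medians of 2380, 2212 and 2019 UMIs, at most 0.419% of cells carried Axl and at most 0.373% Mertk.

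Timd4, the direct phosphatidylserine receptor of long-lived resident macrophages, was sparse. It gave 8, 14 and 1 UMIs in Kupffer-like cells, in 4, 10 and 1 cells. The levels were 23.0 (9.92–45.3), 36.6 (20.0–61.4) and 21.7 (0.549–121) CPM, with overlapping intervals. In cluster A it was 23.2 CPM in CON and 66.2 in HFD, a ratio of 2.86 (1.05–8.18) on 8 and 11 UMIs.

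**Figure D2:**
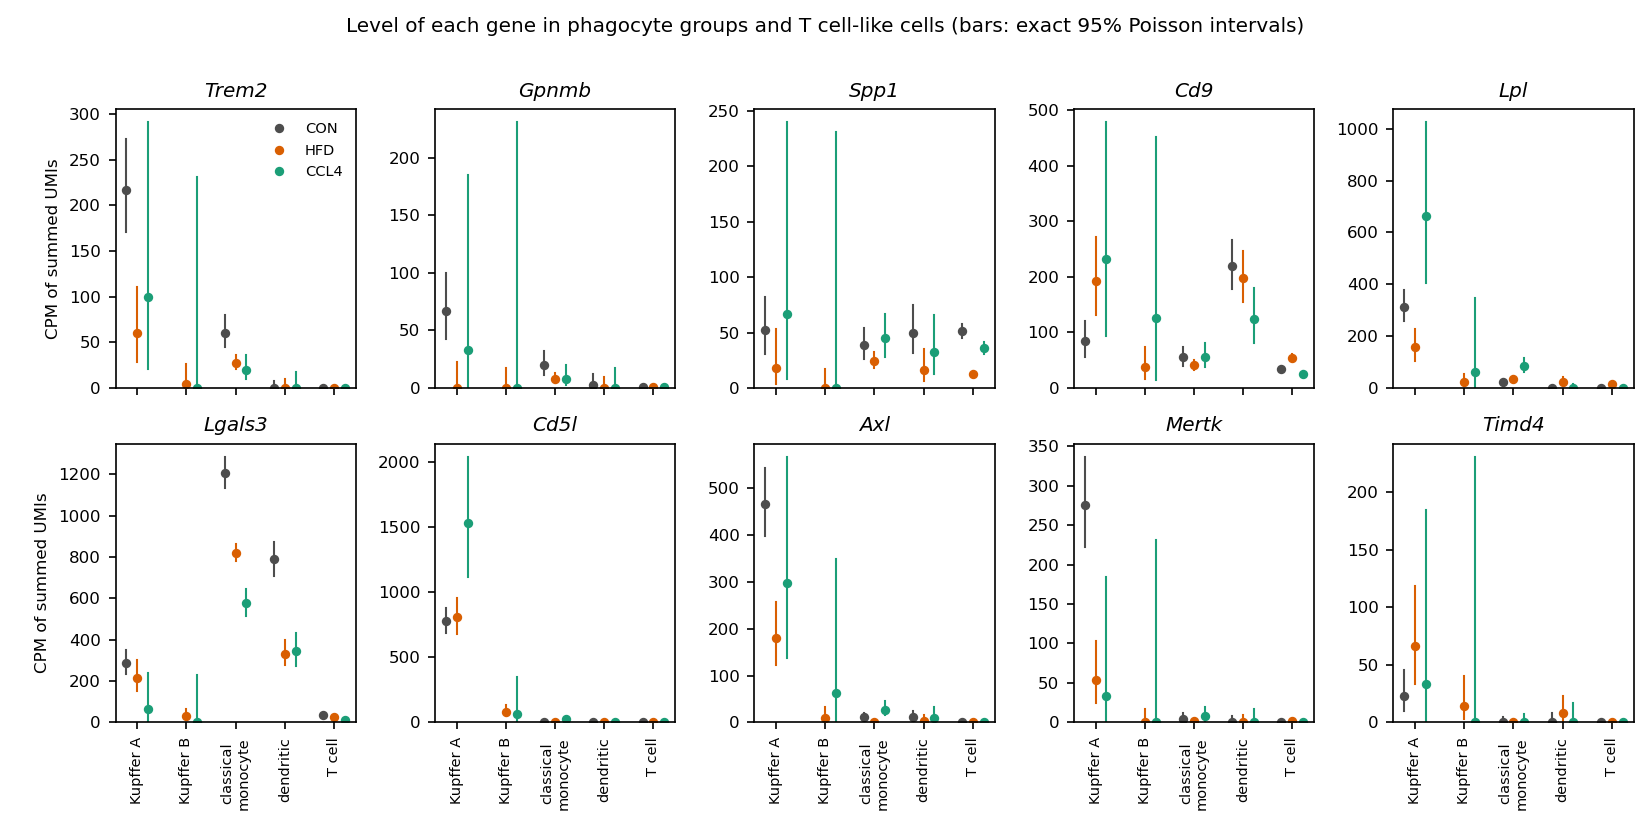
CPM of each of the 10 genes in Kupffer cluster A, Kupffer cluster B, classical monocyte-like, dendritic cell-like and T cell-like cells. Each library has 1 point with a bar for the exact 95% Poisson interval, except that cluster B of CON, with 1 cell, is not drawn. Each panel has its own axis from 0. In cluster A, Trem2 was at 217 CPM in CON and 60.2 in HFD, and Mertk at 275 and 54.2, whereas Cd5l was at 779 and 807; cluster B of HFD held at most 83.2 CPM of any member.

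Set against all genes, the members' shift below CON in Kupffer-like cells stood beside shifts of many other genes in both directions. Among 3867 genes with at least 50 CPM in CON or HFD, 29.4% were at least 2-fold lower in HFD and 19.1% at least 2-fold higher (ratios of CPM plus 5). Of the 9 members that reached 50 CPM, 7 were at least 2-fold lower (Trem2, Gpnmb, Spp1, Lpl, Lgals3, Axl and Mertk) and 0 higher, and Timd4 did not reach 50 CPM. Trem2, Gpnmb, Spp1 and Mertk reached 50 CPM in CON alone, which is where they were high, and Spp1 was not apart from the background there, so this count is a description only. The median ratio was 0.227 over the 9 members and 0.750 over all these genes. In cluster A alone the background was smaller, with 15.4% of 3840 genes lower and 13.4% higher. There 5 of the 10 members were at least 2-fold lower (Trem2, Gpnmb, Spp1, Axl and Mertk) and 2 higher (Cd9 and Timd4), and the medians were 0.456 and 0.891. Of these, Gpnmb and Spp1 reached 50 CPM in CON alone and Timd4 in HFD alone, where each was high. This count too is therefore a description only.

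For CCL4 against CON, 26.7% of 4038 genes were at least 2-fold lower in Kupffer-like cells and 21.1% higher. Of the 9 members that reached 50 CPM, 5 were lower (Trem2, Gpnmb, Lgals3, Axl and Mertk) and 1 higher (Cd9). Of these, Gpnmb, Lgals3 and Mertk reached 50 CPM in CON alone. Axl stayed at least 2-fold lower under only 3 of 13 alternative settings, Gpnmb under 8 and Lgals3 under 10. In cluster A, where 21% of 4286 genes were lower and 24.5% higher, 3 of 9 were lower (Trem2, Lgals3 and Mertk) and 2 higher (Cd9 and Lpl). Mertk reached 50 CPM there in CON alone. These counts rest on 18 cells of CCL4, 10 of them in cluster A. Other measures differed between the libraries along with these ratios. In cluster A the hepatocyte markers summed to 14704, 59196 and 70388 CPM in CON, HFD and CCL4, with all 10 detected in each. The 10 Kupffer markers summed to 9210, 7349 and 5971 CPM, with 10, 10 and 8 detected. The 10 classical monocyte markers summed to 4278, 3569 and 2222 CPM, with 9, 8 and 8 detected, but did not move together. Ccr2, a receptor of recruited monocytes, was found in 35.8%, 20.3% and 30% of cells, whereas Plac8 was at 229, 891 and 99.5 CPM and S100a4 at 14.5, 193 and 66.3 CPM. Their part in the result was not tested.

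**Figure D3:**
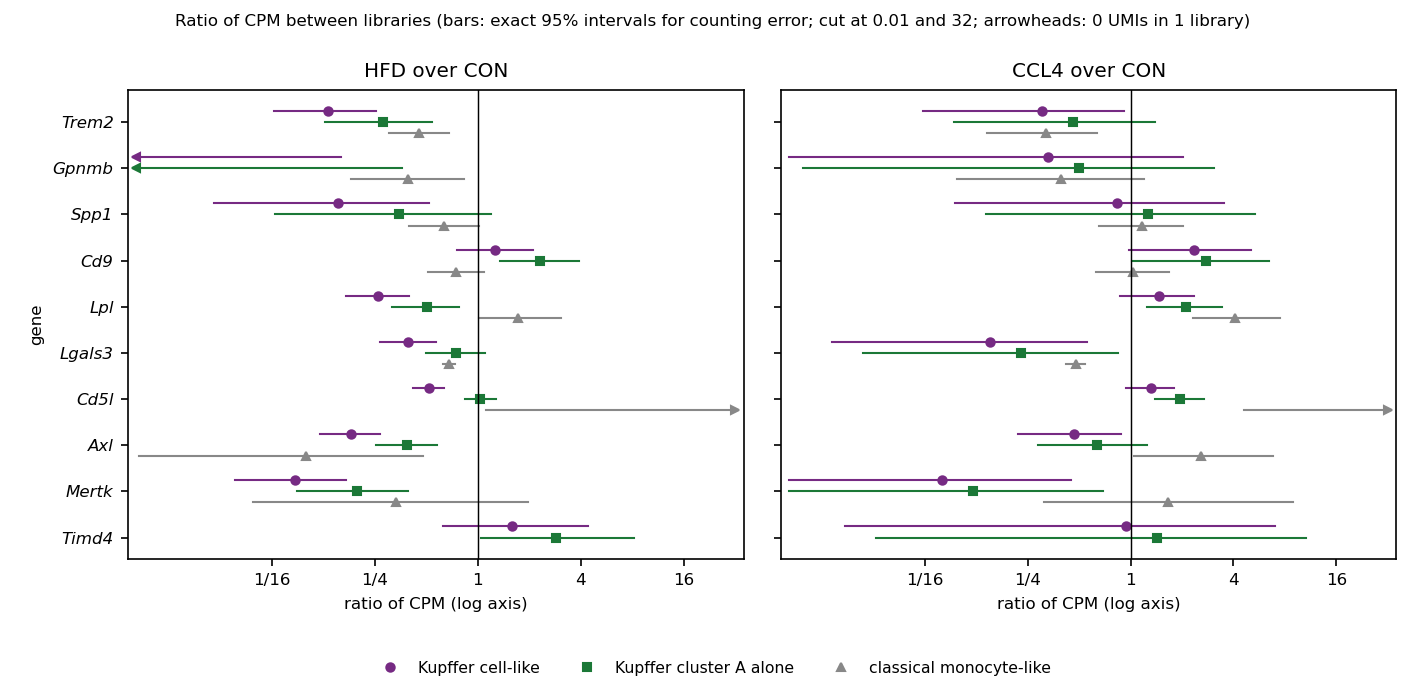
Ratio of CPM of each gene in HFD (left) and CCL4 (right) to CON on a log axis, in Kupffer-like cells (both clusters), Kupffer cluster A and classical monocyte-like cells; bars are exact 95% intervals for counting error and arrowheads mark genes with 0 UMIs in 1 library. Trem2, Axl and Mertk lie left of 1 in HFD for both Kupffer groups, at 0.277, 0.387 and 0.197 in cluster A, and Cd9 lies right of 1 at 2.29.

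Cells of cluster A were divided further, after their values had been seen, into those with at least 1 UMI of Clec4f or Vsig4 and those with neither. The first set held 17, 23 and 2 cells of CON, HFD and CCL4, and the second 50, 36 and 8. Their median depths were 4131 and 2486 UMIs in CON and HFD for the first set and 5060 and 2942 for the second, so the cells without these markers were not the shallower ones. Marco, a scavenger receptor of resident Kupffer cells, had 22 and 54 UMIs in the first set in CON and HFD and 0 in the second. Ccr2 had 0 UMIs in the first set in either library, and 61 and 18 in the second. S100a4 and Chil3 also had 0 UMIs in the first set of both libraries. Folr2 had 11 UMIs in the first set of CON and 11 of HFD, against 2 and 0 in the second. Cd163 had 9 and 5, against 2 and 0. Not all markers split this way in both libraries. Fcna had 16 UMIs in the first set of CON and 16 of HFD, against 15 and 0 in the second. Lyz2, Adgre1 and the C1q genes were found in both sets. Plac8 was found in 47.8% of HFD cells of the first set and 44.4% of the second. The second set also differed in its markers between CON and HFD. Its Kupffer markers summed to 7999 and 4778 CPM, with 7 and 4 of 10 detected, C1qa was found in 96% and 69.4% of its cells and Adgre1, which encodes the macrophage protein F4/80, in 82% and 41.7%. Its classical monocyte markers summed to 4565 and 4368 CPM, among them Plac8 at 265 and 1143 CPM and S100a4 at 18.4 and 313 CPM.

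All 20 Timd4 UMIs of cluster A lay in cells with Clec4f or Vsig4, with 8, 11 and 1 in CON, HFD and CCL4 and 0 in the cells without. Cd5l was level between the libraries in the cells with these markers, at 2057 CPM (1743–2412) in CON and 2100 (1760–2487) in HFD. In the cells without them Cd5l split the libraries: 117 UMIs in 11 of 50 CON cells, 431 CPM (357–517), against 0 UMIs in 36 HFD cells and 36 UMIs in 4 of 8 CCL4 cells.

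Trem2, Lpl and Axl were low in HFD in the cells without Clec4f and Vsig4. There Trem2 gave 62 UMIs in CON and 4 in HFD (ratio 0.171, 0.0452–0.461), Lpl 76 and 4 (0.140, 0.0371–0.372) and Axl 132 and 11 (0.221, 0.108–0.408). In the cells with the markers the ratios were 0.534 (0.167–1.51), 0.796 (0.441–1.41) and 0.759 (0.402–1.40), all with intervals that included 1. The difference between the 2 sets was not tested, nor was the part of the differing markers in the cells without Clec4f and Vsig4. Mertk was the exception: it was low in HFD in both sets, at 0.182 (0.0573–0.444) without the markers and 0.211 (0.0527–0.620) with them. Cd9 was higher in HFD in the cells without the markers (2.77, 1.5–5.13). Of the 23 Gpnmb UMIs of CON, 21 were in the cells without them, but these were 50 of the 67 cells and the deeper ones. As given above, 1 cell held many of the 23 UMIs, and whether Gpnmb split by these markers was not tested.

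**Figure D4:**
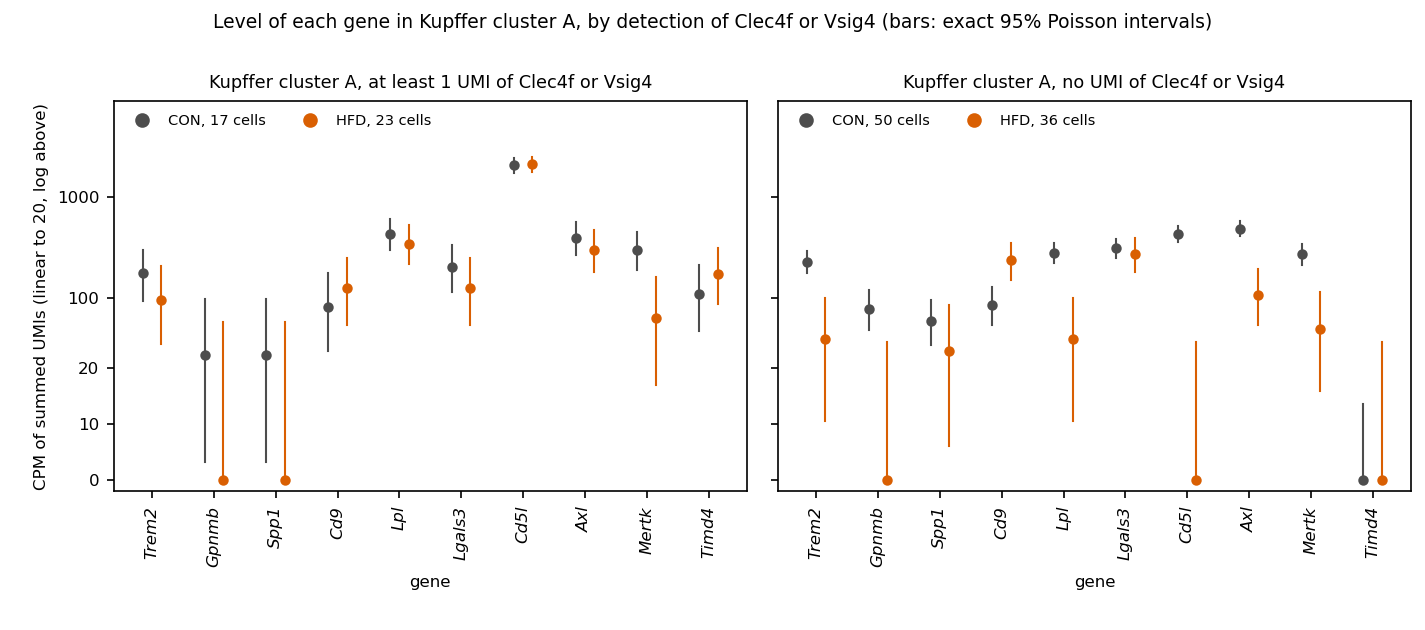
CPM of each gene in Kupffer cluster A cells of CON and HFD with a UMI of Clec4f or Vsig4 (left) and with neither (right). Each of these libraries has 1 point with its exact 95% Poisson interval, and CCL4 is not drawn. The axis is linear to 20 and logarithmic above. Cd5l of CON and HFD is at 2057 and 2100 CPM on the left and at 431 and 0 on the right, and Timd4 is at 0 in both on the right.

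Single cells of CON carried more of the members at a time. A cell of cluster A had a median of 4 members detected in CON, 2 in HFD and 3 in CCL4, and 5 or more were found in 24 of 67, 7 of 59 and 3 of 10 cells. These medians are not corrected for depth, which was highest in CON. Of the 8 CON cells with Gpnmb, 7 also had Trem2, of which there were 34. Of the 4, 7 and 1 cells with Timd4 in CON, HFD and CCL4, all had Cd5l. Axl was found in 55 and Mertk in 43 of 67 CON cells, and both in 35. In HFD they were found in 19 and 9 of 59 cells, and both in 5. Whether they met in the same cells beyond their separate shares was not tested. In cluster B of HFD no member was found in 53 of 80 cells.

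Classical monocyte-like cells carried Lgals3 above all. It gave 1036 UMIs in CON, 1589 in HFD and 297 in CCL4, or 1208 (1135–1284), 820 (780–861) and 577 (514–647) CPM, in 92.2%, 87.6% and 68.1% of cells. The order held after thinning, at 65.7%, 54.6% and 40.8%, and T cell-like cells showed Lgals3 in 7.27%, 5.08% and 2.51% unthinned. The ratio to CON was 0.679 (0.627–0.735) in HFD and 0.478 (0.419–0.544) in CCL4. The class's own 10 markers, all detected, also summed to less outside CON, at 19227, 13829 and 10126 CPM, and the hepatocyte markers to more, at 16500, 61225 and 86703 CPM; their part in the ratios was not tested. Among 3715 genes compared in HFD, 11% were at least 2-fold higher and 7.29% lower; among 3732 in CCL4, 12.9% were higher and 16.5% lower.

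Trem2 was also found in these cells, in 18.5%, 7.58% and 4.90% of them. It gave 52, 53 and 10 UMIs, or 60.6 (45.3–79.5), 27.4 (20.5–35.8) and 19.4 (9.32–35.8) CPM, highest in CON. The ratios to CON were 0.451 (0.302–0.675) in HFD and 0.321 (0.145–0.638) in CCL4. In CON the level in cluster A was 3.58 times that in classical monocyte-like cells (2.48–5.21). In HFD that ratio was 2.20 (0.998–4.37), and in CCL4 it was 5.12 (0.905–19.9) on 3 UMIs in cluster A. Over both Kupffer clusters the ratio was 3.55 (2.46–5.16) in CON and 1.05 (0.495–2.04) in HFD. Of all Trem2 UMIs of the libraries, classical monocyte-like cells held 28.9% in CON, 71.6% in HFD and 58.8% in CCL4, and Kupffer-like cells 41.7%, 14.9% and 17.6%. The first class made up 1.83%, 5.08% and 1.60% of cells and the second 0.607%, 1.07% and 0.141%, so these shares also follow the numbers of cells. In CCL4 they rest on 10 and 3 UMIs.

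Lpl was highest of the 3 libraries in the monocytes of CCL4. It gave 18, 70 and 44 UMIs, or 21.0, 36.1 and 85.6 CPM, with a CCL4 to CON ratio of 4.08 (2.31–7.5), and 14 of the 44 UMIs were in 1 cell. Its log2 ratio of CPM + 5, 1.80, fell under 2-fold without the 8% of barcodes highest in the Scrublet doublet score (0.93) and with each library clustered on its own (0.40). Cd5l had 0 UMIs in 205 CON cells, 11 in HFD and 12 in CCL4, which was 1.62-fold and 6.67-fold higher than a floor of 3 UMIs. These floor ratios are not interval limits. In HFD the level of 5.68 CPM was not apart from the background, at 5.45 CPM in T cell-like cells (ratio 1.04, 0.468–2.16). In CCL4 the level was 23.3 CPM, against 2.52 in T cell-like cells (9.26, 3.74–23.2). Without the highest 8% of Scrublet scores both Cd5l directions against CON turned, with log2 ratios of CPM + 5 of -1.23 in HFD and -0.63 in CCL4. Axl gave 9, 2 and 14 UMIs and Gpnmb 17, 15 and 4. Of the 3 members that reached 50 CPM in CON or HFD, 1 was at least 2-fold lower (Trem2) and 0 higher. Of the 4 in CON or CCL4, 2 were lower (Trem2 and Lgals3) and 1 higher (Lpl). Trem2 reached 50 CPM in CON alone and Lpl in CCL4 alone, where each was high, so these counts are a description only. Because the cells of each library lay in clusters of their own, a difference between libraries and between clusters cannot be told apart here.

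Nonclassical monocyte-like cells were compared with no other library, since 548 of 550 came from HFD. They carried Cd9 at 179 CPM (156–203) and Lgals3 at 187 (164–212), each in 178 of 548 cells (32.5%). Trem2 and Axl had 1 UMI each and Gpnmb 0. In dendritic cell-like cells Lgals3 gave 364, 125 and 75 UMIs, or 789, 333 and 344 CPM, with ratios to CON of 0.421 (0.341–0.518) in HFD and 0.436 (0.335–0.560) in CCL4. Cd9 was at 219, 197 and 124 CPM there. The 10 dendritic markers summed to 1483, 1072 and 582 CPM in this class and the hepatocyte markers to 9184, 60008 and 78327 CPM, and because the libraries lay in different clusters, a difference between libraries and between clusters cannot be told apart. Trem2 and Mertk had 0 UMIs in the dendritic cell-like cells of all 3 libraries. In that class, of 3831 genes compared in HFD 19.6% were at least 2-fold lower and 15.2% higher, and of 3857 in CCL4 25.6% and 15.8%. Of the 2 members that reached 50 CPM, Lgals3 was lower in both comparisons.

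Outside the phagocytes, Spp1 was a gene of cholangiocyte-like cells, the bile duct lining. It gave 13337, 10280 and 7383 UMIs there, or 17053, 16951 and 11658 CPM, in all 115, 163 and 203 cells. HFD was level with CON (0.994, 0.969–1.02) and CCL4 lower (0.684, 0.664–0.703). These cells held 71.8%, 94.1% and 79.0% of all Spp1 UMIs. In that class, 6.69% of 4082 genes were at least 2-fold lower in HFD and 8.08% higher, and in CCL4 14.1% and 10.2% of 4052. Of the 2 members that reached 50 CPM, Spp1 and Cd9, 0 lay past 2-fold in either comparison.

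Spp1 in other classes differed by library. Hepatocyte-like cells held 160, 18.0 and 67.8 CPM. In CCL4 endothelial-like cells 106 UMIs were counted against 16 in CON, and 52 of them were in 1 cell. Cd9 in cholangiocyte-like cells was at 554, 533 and 355 CPM, with a CCL4 to CON ratio of 0.642 (0.544–0.756). In CON the highest Cd9 was in basophil-like cells at 1192 CPM. Neutrophil-like cells were at 457, 368 and 235 CPM of Cd9.

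The uptake receptors were also found outside macrophages. Mertk in endothelial-like cells gave 127, 72 and 16 UMIs, or 171 (142–203), 74.0 (57.9–93.2) and 29.0 (16.6–47.1) CPM. CON was highest there too, with ratios of 0.434 (0.320–0.584) in HFD and 0.170 (0.0944–0.287) in CCL4. The share of all genes past 2-fold was not computed for this class, so whether the difference was particular to Mertk was not tested. Endothelial-like cells held 41.1% of all Mertk UMIs in CON and 41.1% in HFD, more than Kupffer-like cells with 31.1% and 5.14%. Axl was next highest in CON in smooth muscle-like cells, at 303 CPM (242–376) in 79.2% of 53 cells, below the 462 CPM of Kupffer-like cells. In HFD, among classes of at least 50 cells, fibroblast-like cells followed at 48.1 CPM (29.8–73.6), not apart from the 83.6 CPM of Kupffer-like cells.

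Lpl in HFD was also found outside macrophages. Fibroblast-like cells of HFD held 115 CPM (85.1–151), with an interval that met those of Kupffer-like cells at 81.0 (55.1–115) and of cluster A at 156 (102–229). Hepatocyte-like cells held 441 UMIs in HFD against 31 in CON, 22.8-fold higher in CPM (15.8–33.9), and T cell-like cells 74 against 3, 23.9-fold higher (7.87–119). In both classes the libraries lay mostly in separate clusters. Kupffer-like cells held 40.6% of all Lpl UMIs in CON but 3.54% in HFD, where hepatocyte-like cells held 50.3%. Cd5l was next highest in endothelial-like cells of CON and HFD, with 30 and 60 UMIs in 5 and 7 cells, and up to 22 and 23 of these were in 1 cell.

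Companion genes of the lipid-associated program and of efferocytosis were read from 4 lists, compared in Kupffer-like cells against the same backgrounds as above. These were 29.4% lower and 19.1% higher in HFD and 26.7% and 21.1% in CCL4. In cluster A they were 15.4% and 13.4% in HFD and 21% and 24.5% in CCL4. A listed gene could reach 50 CPM in 1 library alone, where it was high, so the counts are a description only. Of 21 companion genes, 18 reached 50 CPM. In HFD 11 of these were at least 2-fold lower and 1 higher, with a median ratio of 0.417, and in cluster A 3 and 1, with a median of 0.731. Fabp5, a fatty acid carrier, was the higher one, at 1255 CPM in HFD against 402 in CON (3.12, 2.58–3.79), and 2.05 (1.61–2.61) in cluster A. In CCL4 Fabp5 was the lowest of the list at 43.4 CPM (0.108, 0.0129–0.397). The background moved the same way: T cell-like cells held 237, 928 and 23.8 CPM of Fabp5 in CON, HFD and CCL4. Plin2, which coats lipid droplets, had ratios of 1.99 (1.5–2.66) in HFD and 1.84 (1.03–3.1) in CCL4, and T cell-like cells held 186, 357 and 325 CPM of it. The part of this background in the ratios was not tested.

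Lysosomal and matrix proteases of that list differed from each other. Ctsd, an aspartic protease, was at 0.241 (0.192–0.300) in HFD and at 0.370 (0.282–0.478) in cluster A. Mmp12, a macrophage elastase, was at 0.169 (0.0688–0.364) and 0.338 (0.128–0.759). Ctsl, a cysteine protease, was at 2.74 (1.77–4.16) in CCL4, the highest of the list, and in T cell-like cells it was at 129, 303 and 482 CPM in CON, HFD and CCL4. Lgals1, the galectin-1 gene, was at 0.236 (0.0280–0.887) in CCL4. In CCL4 as a whole, 2 of 18 companions were lower and 1 higher, beside a background of 26.7% lower and 21.1% higher.

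Of 10 bridging and don't-eat-me genes, 8 reached 50 CPM and all 8 were at least 2-fold lower in HFD over both clusters, with a median of 0.352. In cluster A 2 of 8 were lower, Gas6 and Thbs1, with a median of 0.607. Gas6, the ligand of AXL and MERTK, gave 23, 5 and 0 UMIs in CON, HFD and CCL4, with an HFD ratio of 0.198 (0.0588–0.532), and T cell-like cells held 25.3, 13 and 7.1 CPM of it. Gas6 reached 50 CPM in CON alone. C1qb, a complement subunit that coats dying cells, had ratios of 0.280 (0.243–0.321) in HFD and 0.392 (0.285–0.528) in CCL4, and in cluster A 0.574 (0.496–0.662) and 0.482 (0.337–0.669). C1qa, C1qb and C1qc, all in this list, are among the markers by which Kupffer-like cells were named. In HFD, C1qa was at 2335 CPM in cluster A and 143 in cluster B, which held 80 of the 139 HFD cells. Calr and Cd47, an eat-me and a don't-eat-me signal, were the least low, at 0.488 (0.390–0.608) and 0.458 (0.344–0.606) in HFD. In CCL4, 4 of 8 were lower, beside a background of 26.7%.

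Of 17 other receptors and uptake genes, 10 reached 50 CPM, and in HFD 7 were lower over both clusters and 3 in cluster A (Stab1, Msr1 and Lrp1), with 0 higher in either. Stab1, a phosphatidylserine receptor, was at 0.156 (0.0536–0.375), and Elmo1, which links receptors to RAC1, at 0.218 (0.102–0.427), and in cluster A 0.178 (0.0351–0.565) and 0.497 (0.232–0.974). Rac1 and Scarb1 were the least low at 0.573 (0.435–0.751) and 0.572 (0.340–0.946). In CCL4 2 of 10 were lower, beside a background of 26.7%: Cd300lf with 0 UMIs against 23 and Msr1 with 2 against 61. Abca1, the cholesterol exporter, stood at 0.991 (0.510–1.77) in CCL4. Of 12 regulators, 8 were compared in HFD. Maf and Mitf were the lowest, at 0.149 (0.104–0.207) and 0.101 (0.0114–0.422), among 5 that were lower and 0 higher. In cluster A these 2 alone were lower, at 0.283 (0.191–0.405) and 0.231 (0.0260–0.964). Nr1h3, the liver X receptor alpha gene, and Rxra, its partner, had ratios of 0.675 (0.451–1.00) and 0.796 (0.422–1.49). In CCL4 3 of 9 regulators were lower, near the background of 26.7%. The 1 higher was Nr1h2, with 4 UMIs against 8 (3.77, 0.832–14.1).

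Over 42 profiles (classes by library of at least 50 cells) and 7842 genes, the genes most like each member by Pearson correlation of log2(CPM + 1) were as follows; profiles of 1 library share its depth and free RNA. Trem2 was most like Fcgr1 (r = 0.85), Adgre1 (0.83) and Ctsc (0.80), and Gpnmb like Fcgr1 (0.77), Trem2 (0.76) and Ctsa (0.70). Cd5l was most like Clec4f (0.91), C1qa (0.89) and C1qc (0.89), and Timd4 like Cd5l (0.84), Clec4f (0.83) and Ms4a7 (0.80). Mertk was most like Pmp22 (0.85), Stab1 (0.85) and Mrc1 (0.82), and Axl like Pmp22 (0.82), Id3 (0.77) and Zfp703 (0.77).

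The remaining members had no Kupffer marker among these neighbours, nor did Gpnmb, Mertk and Axl above. Lgals3 was most like Csf2ra (0.91), Cd300a (0.90) and Ppt1 (0.89). Spp1 was most like Anxa13 (0.91), A230001M10Rik (0.91) and Ankrd1 (0.91). Lpl was most like Tmem51 (0.77), Slc30a1 (0.76) and Itgb5 (0.75), and Cd9 like Cd63 (0.77), Ier2 (0.73) and Klf7 (0.71).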

How the data were processed

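The deposited files were filtered UMI count matrices with feature and barcode lists, 1 set for each of 3 libraries, made by the authors with Cell Ranger 7.2.0 per the file headers; the values are raw whole UMI counts. The study's methods name mm10 and the submitters' processing notes name GRCm39 and Seurat; of 55357 feature IDs, 52081 were in GENCODE M21 (GRCm38), from which positions were taken. No cell annotation was used.

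Barcodes entered the analysis if they had 500 UMIs or more, 200 genes or more and no more than 30% of UMIs from mitochondrial genes (36945 of 36990). Scrublet marked 2, 1 and 3 barcodes, which were left out, so in effect doublets were not removed. Counts were clustered with scanpy 1.11.5 (2000 variable genes without the 10 members, 30 components, 15 neighbours, Leiden resolution 1, no batch correction), giving 39 clusters, and the phagocyte clusters were clustered again into 11. Clusters were named "-like" from 20 marker lists that hold no member. The scoring rule was set after the clusters were seen: a name needed at least 3 markers raised 1.5-fold over the median of the clusters. When clusters were clustered again, those that also raised 5 or more markers of certain other classes stayed unnamed. These were the lymphocyte, plasma cell, neutrophil, basophil, erythroid, platelet, plasmacytoid dendritic, endothelial, cholangiocyte, fibroblast and smooth muscle classes. Markers of hepatocytes, Kupffer cells, monocytes, dendritic cells and progenitors were not checked. Cluster A raised 6 nonclassical and 5 classical monocyte markers and kept its name. In all, 1467 cells stayed unnamed. A mixed cluster was clustered again into 13, centred by library, for dendritic and progenitor names only.

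UMIs were summed per class and library and divided by all UMIs of those cells (CPM). Poisson, Clopper-Pearson and conditional binomial 95% intervals were exact (scipy 1.17.1). Shares were also given as the mean share after thinning each cell to 1000 UMIs. A count of 0 was set at a floor of 3 UMIs for ratios, which are then not 95% limits. Ratios past 2-fold were counted on CPM + 5 among genes with at least 50 CPM in 1 of the 2 libraries. The computation was tested on simulated data. The named genes were all 10 members, the 3 genes most like each, and the 2 highest and 2 lowest genes of each pathway list, of which not all are printed; a few more were named after their values were seen. The members, lists and division by Clec4f and Vsig4 were chosen with earlier results or values of these data known.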

Additional observations from a re-analysis of the deposited data

How the results depend on the processing

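No paired analysis was possible because each group was 1 library and no result came from a test. In Kupffer-like cells, Trem2, Gpnmb and Mertk were at least 2-fold lower in HFD than in CON under all 13 alternatives, with log2 ratios of CPM + 5 of -3.61 to -1.28 for Trem2, -4.88 to -3.48 for Gpnmb and -4.22 to -2.12 for Mertk. Axl and Spp1 were so under 12, Lpl under 10 and Lgals3 under 8. In CCL4, Mertk was at least 2-fold lower under all 13, Trem2 under 12, Lgals3 under 10, Gpnmb under 8 and Axl under 3, and Cd9 at least 2-fold higher under 10. The alternatives that kept the first names, that pooled phagocytes and mixed cells, and that took cluster A alone were added after the data had been seen. The cause of the changes given here was not tested.

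The count of members at least 2-fold higher in HFD Kupffer-like cells, 0 in the report, was 2 with cluster A alone, with 3000 variable genes, at resolution 0.5, with each library clustered on its own and with a minimum of 2000 UMIs, and 1 with the first names or without the highest 8% of Scrublet scores. The count lower, 7, was 3 with a minimum of 2000 UMIs. In CCL4 the count higher, 1, was 3 with 3000 variable genes or a minimum of 2000 UMIs, 2 with cluster A alone, and 0 with a 15% mitochondrial limit, at resolution 2 or as UMIs per cell. The count lower, 5, was 3 with cluster A alone, with each library on its own or with members among the variable genes, and 2 with 3000 variable genes or in the single pool. In classical monocyte-like cells the HFD count lower, 1, was 3 as UMIs per cell and 0 at resolution 2 or when scaled outside the mitochondrial and 20 most abundant genes. The CCL4 count lower, 2, was 1 under these last 2, and the count higher, 1, was 0 with each library on its own or without the highest Scrublet scores. Apart from cluster A alone, the share of all genes past 2-fold was not computed for the settings in this paragraph. These counts are therefore a description only.

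Cd5l in HFD Kupffer-like cells, at a log2 ratio of -0.95, turned to 0.032 with 3000 variable genes, 0.050 in cluster A alone, 0.16 at resolution 0.5 and 0.61 with a minimum of 2000 UMIs. Lgals3 in CCL4, at -2.60, turned to 0.34 with each library on its own. Without the highest Scrublet scores, classical monocyte-like Cd5l turned from 1.09 to -1.23 in HFD and from 2.50 to -0.63 in CCL4, and Lpl in HFD from 0.66 to -0.00041. Shares thinned to 1500 UMIs and the background shares under other limits stayed within 1.5 times. Levels as UMIs per cell were not run. The 18 Kupffer-like cells of CCL4, and UMI counts under 20 for several members, set the precision.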
